A study of Mus musculus with 6 samples.

Results

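Inward rectifier potassium channels and the sulfonylurea receptors that pair with some of them were followed in E12.5 mouse hearts, at mid-gestation. The set held 8 genes, 6 channel genes of the Kcnj family (Kcnj6, Kcnj2, Kcnj3, Kcnj5, Kcnj8 and Kcnj11) and 2 receptor genes (Abcc8 and Abcc9), taken by symbol from a count table of 30619 genes, and all 8 were in the table. All 8 passed the filter on low counts. The set was selected on the CPM and fold changes of these same libraries, so those values describe the 8 genes and do not test them. Libraries were poly(A) RNA from whole hearts, described as mixed embryonic cardiac cells, 3 from wild-type embryos (controls, CTR) and 3 from embryos whose titles name a conditional knockout of TRIM28 (CKO) and whose genotype field reads TRIM28 knockdown. TRIM28 is a co-repressor that zinc finger proteins bring to DNA, and the series asks what it does in the growth of the trabeculae and compact wall of the ventricle. Neither the Cre driver, the floxed allele, the strain nor the number of hearts in a library is given in the sources used here. The labels do not name separate embryos for the libraries, so any p-value measures the spread between these 6 samples.

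An inward rectifier passes potassium into the cell more easily than out of it, and in heart muscle such channels hold the resting potential and shape the last phase of the action potential. A channel is a tetramer of pore subunits, which may be products of different genes. Channels of the Kir3 (GIRK) group open when a receptor such as the muscarinic M2 receptor releases G protein beta-gamma subunits, and in atrial and nodal cells they slow the beat under vagal control. The Kir6 pores assemble with sulfonylurea receptors into ATP-sensitive (KATP) channels, which open when cellular ATP falls.

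The libraries held between 34400841 and 39763233 counts, with 23736 to 24725 genes detected in each. Trim28 itself was measured at 305, 391 and 443 CPM (read counts scaled to the size of the library) in controls 1, 2 and 3. The 3 CKO libraries held 172, 314 and 165 CPM in the same order of numbering. The library labelled CKO 2 lay inside the control range, and the log2 fold change of Trim28 (-0.81, SE 0.34) was not called by edgeR (adjusted p = 0.339, and 0.0763 to 0.612 with 1 library left out), but was called by limma-voom (-0.86, adjusted p = 0.0165). Without the library labelled CKO 2 it was -1.17 (edgeR adjusted p = 0.0763). That library does not bear out its label by this gene, so directions given for CKO rest on the labels, and log2 fold changes without it are given beside the results. Libraries differed in other ways too. A ribosomal RNA row took 0.126% to 0.522% of counts in controls and 0.563% to 0.79% in CKO. Summed Y-linked genes were at 80.3, 0.026 and 122 CPM in controls 1, 2 and 3 and at 102, 207 and 209 CPM in CKO 1, 2 and 3. Xist, the RNA that coats the silenced X in female cells, was at 618, 943 and 469 CPM in controls and at 420, 0.203 and 0.101 CPM in CKO 1, 2 and 3. Controls 1 and 3 and CKO 1 thus held both Xist and Y-linked RNA. Control 2 held Xist with almost no Y-linked RNA, and CKO 2 and CKO 3 held Y-linked RNA with almost no Xist. The mix of sexes therefore differed between the groups, and its part in the differences was not tested. The Y-linked covariate used further on mostly sets control 2 apart from the other libraries. The defining heart muscle markers were high in every library, with mean CPM of Tnnt2 at 3272 ± 180 for controls and 3257 ± 110 for CKO (SD, n = 3). In bulk RNA, fewer cells of a type and less RNA per cell cannot be told apart.

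Kcnj6 was the gene on which the set turned, and it has 2 annotated RefSeq starts about which gene-level counts say nothing. The 250 bases before each start, and those before the start of Kcnj5, are shown 5′ to 3′ on the gene's strand. They were chosen because these are the promoter regions of the G protein-gated genes that were higher in CKO. Sequences and starts are from RefSeq (GRCm38.p6), and capitals mark CpG dinucleotides.
Kcnj6, upstream start region, chr16:94997697-94997946, minus strand: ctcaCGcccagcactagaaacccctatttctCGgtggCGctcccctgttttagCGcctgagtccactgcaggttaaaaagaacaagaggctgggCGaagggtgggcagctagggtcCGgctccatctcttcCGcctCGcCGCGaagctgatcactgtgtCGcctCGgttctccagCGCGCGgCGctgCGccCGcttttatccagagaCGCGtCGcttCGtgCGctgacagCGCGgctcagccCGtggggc
Kcnj6, downstream start region, chr16:94856691-94856940, minus strand: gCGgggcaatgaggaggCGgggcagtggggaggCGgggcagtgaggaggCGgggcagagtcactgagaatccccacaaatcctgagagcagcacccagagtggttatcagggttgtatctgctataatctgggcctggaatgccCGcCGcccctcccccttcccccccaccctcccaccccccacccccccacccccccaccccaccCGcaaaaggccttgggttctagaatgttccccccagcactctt
Kcnj5, start region, chr9:32344345-32344594, minus strand: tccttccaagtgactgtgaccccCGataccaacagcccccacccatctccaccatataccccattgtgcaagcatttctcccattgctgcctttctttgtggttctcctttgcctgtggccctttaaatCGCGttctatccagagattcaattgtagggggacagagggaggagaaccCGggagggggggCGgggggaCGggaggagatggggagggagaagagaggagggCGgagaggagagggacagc
The upstream Kcnj6 region held 26 CpG dinucleotides, more than 90.4% of the 32851 RefSeq start regions of that length. The downstream Kcnj6 region and the Kcnj5 region held 7 each, close to the median of 6 over all regions. GC content was alike at 64%, 65.6% and 58%, against a median of 52.4%. Regions of 6 of the 8 genes were matched (7 starts), and no TATA box (TATAAA, either strand) was in any of the 7, while 12.4% of all regions held one. The other starts held 14 (Kcnj2), 12 (Abcc9), 7 (Kcnj3) and 6 (Kcnj8) CpG dinucleotides. These matches describe the letters in the windows and nothing about factor binding. Kcnj11 and Abcc8 had no entry.

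The G protein-gated channel genes come first. Kcnj6 encodes Kir3.2 (GIRK2), best known from neurons, and its level was low in control hearts. It was read 50, 49 and 49 times in controls 1, 2 and 3 and 215, 181 and 316 times in CKO 1, 2 and 3. In CPM these were 1.25, 1.27 and 1.31 in controls and 5.93, 5.25 and 7.98 in CKO, so every CKO library lay far above every control. The means were 1.28 ± 0.0275 and 6.39 ± 1.42 CPM (SD, n = 3), a ratio of 5 and a log2 fold change of 2.33 (SE 0.24). The 3 controls spread by 2.2% of their mean (SD), less than the 14.3% that counting error alone gives at 49 reads, whose exact 95% Poisson interval is 36.3 to 64.8, so the control SD understates the uncertainty. Without the library labelled CKO 2 the log2 fold change was 2.45, and over the fits that left out 1 library it ran from 2.13 to 2.45.

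Kcnj6 (chromosome 16, 94748636 to 94997701, minus strand, mm10) shares 380 exonic bases at its 3′ end with the antisense gene Gm41505 (94721894 to 94753438, plus strand). Whether reads were counted by strand is not stated, so reads of this stretch cannot be assigned. Gm41505 was at 10.5, 9.45 and 8.67 CPM in controls and 22.5, 16.6 and 21.5 CPM in CKO (log2 fold change 1.08, SE 0.13, edgeR adjusted p = 6.7e-05, adjusted p at most 0.00177 with 1 library left out). It was 1.199 without the library labelled CKO 2, and 0.89 and not called with the ribosomal RNA share as a covariate (adjusted p = 0.065). Both genes were thus higher in CKO, but not in a fixed proportion. Kcnj6 counts were 0.119, 0.135 and 0.151 of those of Gm41505 in controls and 0.264, 0.316 and 0.371 in CKO, with no overlap. With the counts of both genes summed, an alternative chosen after seeing the data, the log2 fold change was 1.30 (SE 0.12), since Gm41505 supplies most of the sum. The neighbouring coding genes did not share the difference. Dyrk1a, a kinase gene 53118 bases away, had a log2 fold change of -0.01 (SE 0.06), and Kcnj15, an inward rectifier gene 259856 bases away on the other side, one of -0.36 (SE 0.20).

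**Figure D1:**
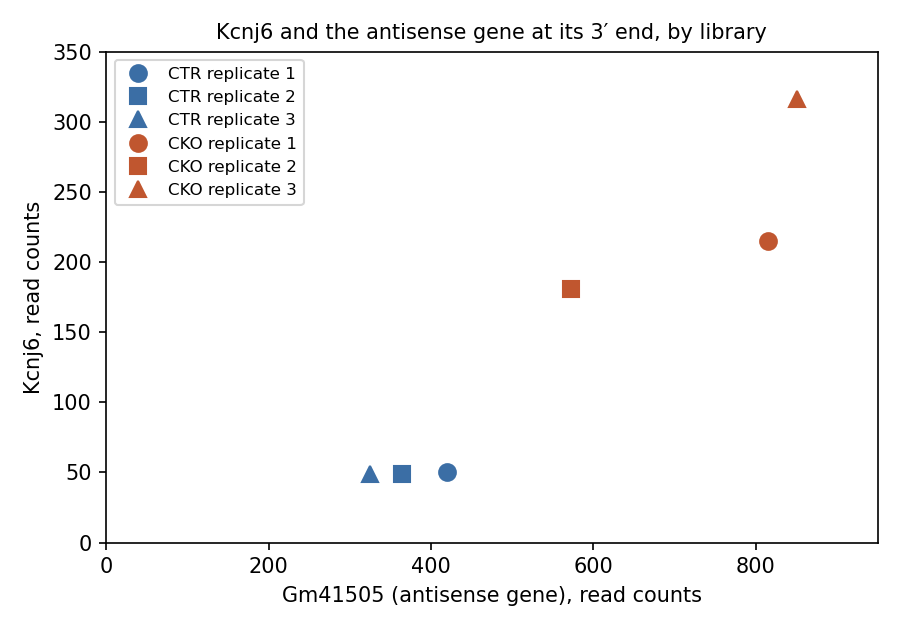
Read counts of Kcnj6 (vertical axis) against those of the antisense gene Gm41505 (horizontal axis), 1 point per library, controls in blue and CKO in orange. The 3 controls sit at 49 to 50 Kcnj6 counts and the CKO libraries at 181 to 316, with more Gm41505 counts in each CKO library than in any control.

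Kcnj5 encodes Kir3.4 (GIRK4), which with Kir3.1 forms the acetylcholine-activated channel of the atria. It measured 99.9, 119 and 107 CPM in controls and 148, 133 and 126 CPM in CKO. All CKO libraries were above all controls, by a narrow margin between CKO 3 and control 2. The means were 109 ± 9.89 and 136 ± 11.6 CPM (SD, n = 3), a log2 fold change of 0.32 (SE 0.07), and 0.33 without the library labelled CKO 2. Kcnj3 encodes that partner, Kir3.1 (GIRK1), and it did not share the direction. Its values were 23.3, 26.8 and 27.6 CPM in controls and 21.4, 23.7 and 18.1 CPM in CKO. The groups overlapped through CKO 2 and control 1, and the log2 fold change was -0.30 (SE 0.10), or -0.39 without the library labelled CKO 2, the one fit with a library left out in which edgeR called Kcnj3 lower. The antisense RNA Gm26794 shares 1621 exonic bases with Kcnj3 but averaged 0.641 CPM in controls and 0.604 CPM in CKO.

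The balance of the 3 G protein-gated transcripts differed between the groups. Per kilobase of merged exons, Kcnj5 was 4.78, 4.96 and 4.33 times as abundant as Kcnj3 in controls and 7.70, 6.24 and 7.72 times in CKO. Each CKO library thus had the higher ratio of GIRK4 to GIRK1 transcripts. The Kcnj3 share of the summed level of the 3 genes was 17.5% ± 1.02 in controls and 11.95% ± 1.37 in CKO (SD, n = 3). Kcnj6 took 0.593% ± 0.0473 of it in controls and 2.51% ± 0.722 in CKO (SD, n = 3). Kcnj6 thus remained a minor transcript in CKO hearts. Its share depends on the length used, because its merged exons span 7633 bases and its longest annotated transcript 3627.

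Kcnj2 encodes Kir2.1, the main pore of the resting current of ventricular muscle. Its level was 20.2, 24.2 and 29.3 CPM in controls and 21.3, 25.0 and 22.7 CPM in CKO. All CKO values lay within the control range, and the log2 fold change was -0.09 (SE 0.12), or -0.16 without the library labelled CKO 2. Its gene neighbour Kcnj16, 38195 bases away, had at most 2 counts in any library, and Sox9, a cartilage and valve regulator on the other side, had a log2 fold change of -0.15 (SE 0.10).

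The KATP genes lie as 2 pore and receptor pairs, Kcnj11 beside Abcc8 on chromosome 7 with 3758 bases between them, and Kcnj8 beside Abcc9 on chromosome 6 with 16247 bases between them. Kcnj11 encodes Kir6.2, the pore of ATP-sensitive channels in heart muscle and pancreatic beta cells. It was at 42.0, 47.5 and 45.3 CPM in controls and 58.1, 48.9 and 60.2 CPM in CKO. CKO 2 was only just above control 2, and the other CKO libraries stood clear. The means were 45.0 ± 2.79 and 55.7 ± 5.99 CPM (SD, n = 3) and the log2 fold change was 0.31 (SE 0.08), or 0.40 without the library labelled CKO 2.

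Abcc8 encodes SUR1, the receptor of beta cells and, in mice, of atrial muscle. Its values were 14.2, 15.7 and 16.1 CPM in controls and 20.4, 20.2 and 25.9 CPM in CKO, without overlap. The log2 fold change was 0.53 (SE 0.11), and 0.60 without the library labelled CKO 2. Annotated genes inside the Abcc8 span, Gm45487 and Gm45486, share no exonic base with it and averaged under 1 CPM. The flanking genes Nomo1 (log2 fold change 0.00, SE 0.05) and Ush1c (0.40, SE 0.30) were not called.

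The other pair showed no such difference. Kcnj8 encodes Kir6.1, a pore of vascular smooth muscle and pericytes, and was read 168, 148 and 105 times in controls and 174, 137 and 127 times in CKO. In CPM it was 4.21, 3.84 and 2.80 in controls and 4.80, 3.98 and 3.21 in CKO, so the groups overlapped almost throughout. The log2 fold change was 0.13 (SE 0.22), also without the library labelled CKO 2, and at this spread a small difference was not detectable. Abcc9 encodes SUR2, the receptor of ventricular and smooth muscle channels. It stood at 154, 171 and 156 CPM in controls and 144, 153 and 167 CPM in CKO, with a log2 fold change of -0.05 (SE 0.06), or -0.04 without the library labelled CKO 2. The values of the groups lay among each other. Counts per gene do not separate its SUR2A and SUR2B splice forms. The flanking genes Ldhb (0.02, SE 0.07) and Cmas (0.09, SE 0.06) were not called either, and the antisense RNA 5330439B14Rik, which shares 158 exonic bases with Abcc9, averaged 0.0084 CPM in controls and 0.0862 CPM in CKO.

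The make-up of the receptor transcripts shifted with Abcc8. Per length, Abcc9 exceeded Abcc8 10.4, 10.5 and 9.38 times in controls and 6.81, 7.30 and 6.24 times in CKO, and the groups did not overlap. Abcc8 made up 9.03% ± 0.525 of the summed receptor level in controls and 12.9% ± 0.884 in CKO (SD, n = 3). For the pores the shares overlapped, and Kcnj11 made up 89.6% ± 2.23 of the 2 Kir6 pores in controls and 90.6% ± 1.99 in CKO (SD, n = 3). As Kcnj11 was most of that sum and Kcnj8 varied (SD 20.2% and 19.9% of its mean), this share could show little of a Kcnj11 rise. These shares come from the same counts as the fold changes and add no separate evidence.

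**Figure D2:**
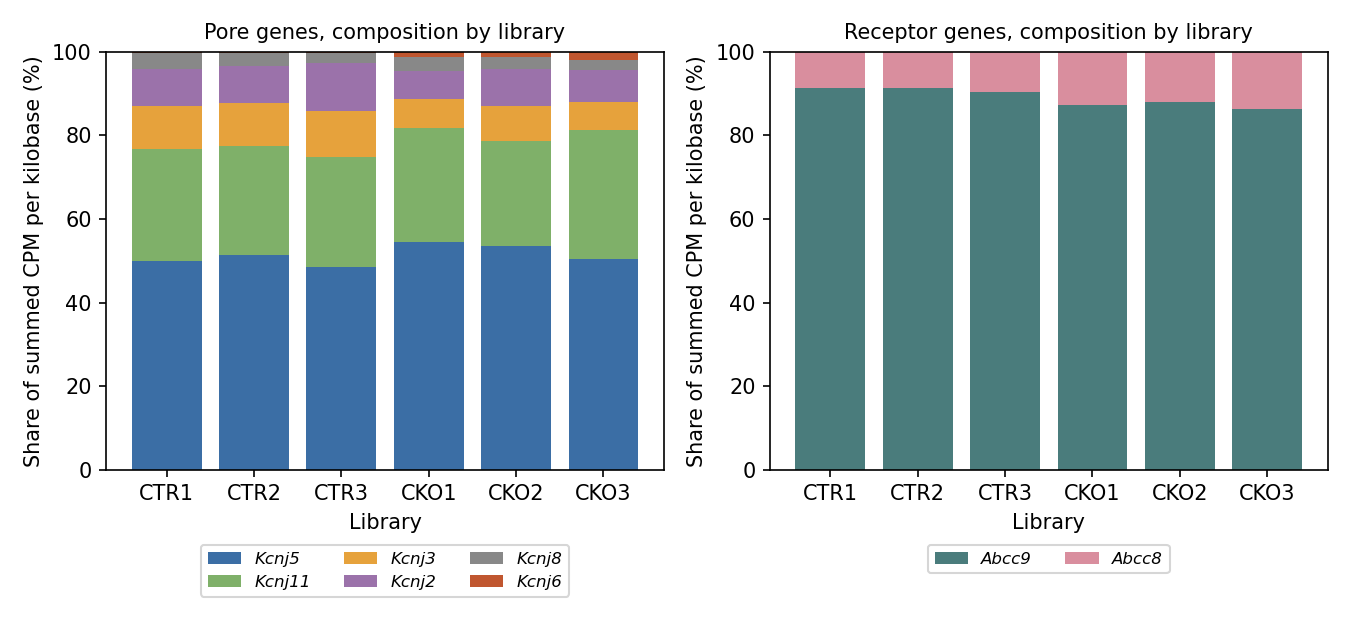
Share in percent of each channel gene in the summed CPM per kilobase of the 6 Kcnj genes (left) and of each receptor gene in that of Abcc8 and Abcc9 (right), 1 bar per library. Kcnj5 fills 48.5% to 54.4% of each channel bar, the Kcnj6 segment at the top takes 0.335% to 0.384% of control bars and 1.30% to 1.97% of CKO bars, and Abcc8 takes 8.70% to 9.63% of control bars and 12.04% to 13.8% of CKO bars.

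The order of the 8 levels per kilobase was almost the same in both groups. In controls Kcnj5 was highest at 23.2 ± 2.11 CPM per kilobase, followed by Abcc9 at 19.1 ± 1.08 and Kcnj11 at 12.2 ± 0.759 (SD, n = 3). Kcnj3 (4.96 ± 0.441) and Kcnj2 (4.51 ± 0.837) came next and were not separated, as their ranges overlapped. Abcc8 (1.90 ± 0.121), Kcnj8 (1.42 ± 0.287) and Kcnj6 (0.167 ± 0.00361) closed the order (SD, n = 3). The remaining neighbours did not overlap over the 3 controls, although with the longest transcript as length Kcnj5 and Abcc9 did. In CKO only Kcnj2 (4.22 ± 0.342) and Kcnj3 (4.04 ± 0.536) changed places, and they again overlapped (SD, n = 3). With the longest transcript as length the CKO order changed further, as Abcc8 stood at rank 4 and Kcnj6 (1.76 ± 0.391) at rank 7, above Kcnj8 (1.57 ± 0.312), with overlapping ranges (SD, n = 3).

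**Figure D3:**
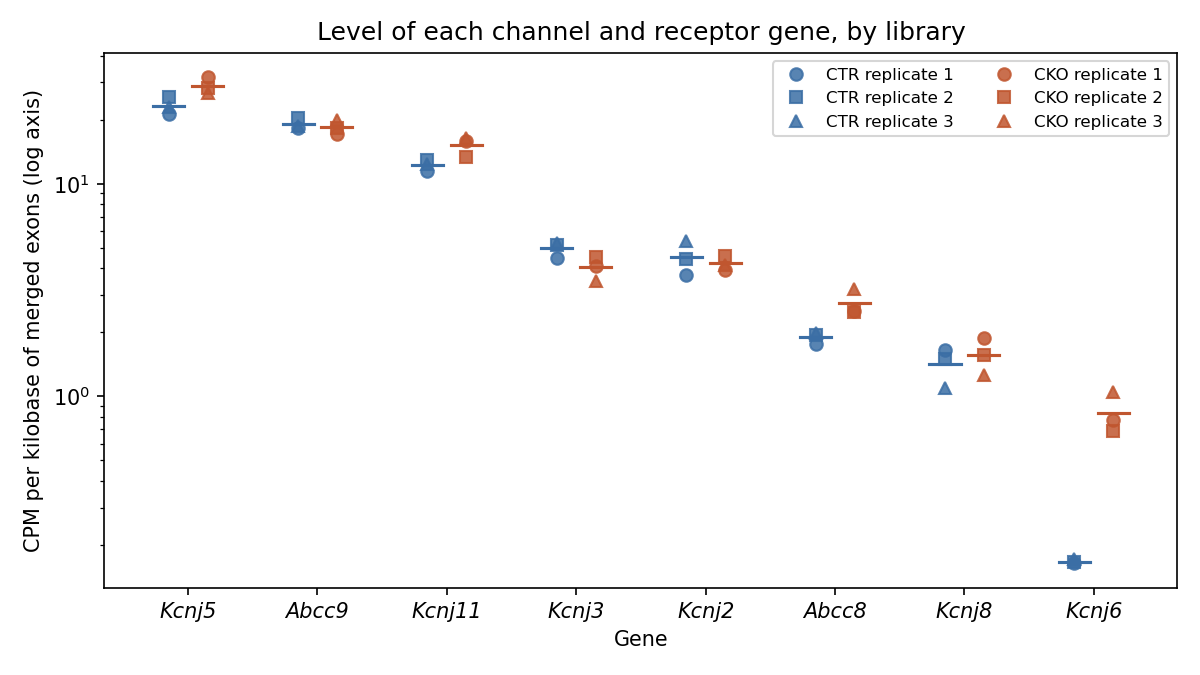
CPM per kilobase of merged exons on a log axis for the 8 genes, ordered by the control mean, with 1 symbol per library and a bar at each group mean. Kcnj6 is the lowest gene in both groups and the one whose groups lie farthest apart, from 0.167 to 0.837 on average.

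Set side by side, 4 of the 8 genes were among those called higher by edgeR's quasi-likelihood test with Benjamini-Hochberg adjustment (Kcnj6, Kcnj5, Kcnj11 and Abcc8), and in all genes tested 3.03% were called higher. DESeq2 called the same number, while limma-voom and the fit with the replicate number as a block called 3, without Kcnj11 (0.31 in each). None was called lower, by edgeR, by DESeq2 or by limma-voom, where 1.07% of all genes were, and 1 (Kcnj3) had an unadjusted edgeR p under 0.05 in that direction. The same 4 genes were the ones whose CKO values all exceeded the controls, as did 11.5% of all genes tested. Because the genes were chosen with this contrast known, these counts describe the set and nothing is read from them. The median log2 fold change of the 8 was 0.22, beside 0.00 over all 17557 tested genes. The calls were not equally firm. Kcnj6 was called in all 6 fits that left out 1 library, Abcc8 in 4, Kcnj5 in 3 and Kcnj11 in 1, the fit without the library labelled CKO 2. Abcc8 was not called without control replicate 1 or CKO replicate 3, and Kcnj5 was not called without control replicate 1, control replicate 3 or CKO replicate 1. With the ribosomal RNA share as a covariate, which was higher in every CKO library, Kcnj6 alone was called. In that fit Kcnj6 was at 2.59, Kcnj5 at 0.36 (SE 0.12), Kcnj11 at 0.41 (SE 0.13) and Abcc8 at 0.72 (SE 0.17), with larger errors. Kcnj3 was at -0.16 (SE 0.16). Because that share does not overlap between the groups, the fit cannot separate it from the group. With Y-linked expression as a covariate Kcnj6 and Kcnj5 were called, and Kcnj11 (0.37, SE 0.10) and Abcc8 (0.54, SE 0.14) were not. That covariate is on a log2 scale, where control 2 (0.026 CPM) stands far from the other libraries (80.3 to 209 CPM). Its log2 fold changes were close to those without control replicate 2 (Kcnj5 0.41 and 0.39, Abcc8 0.54 and 0.55). It thus does little to adjust for the sexes of the other libraries. The part of the ribosomal RNA share or of the mix of sexes in these differences was not tested.

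**Figure D4:**
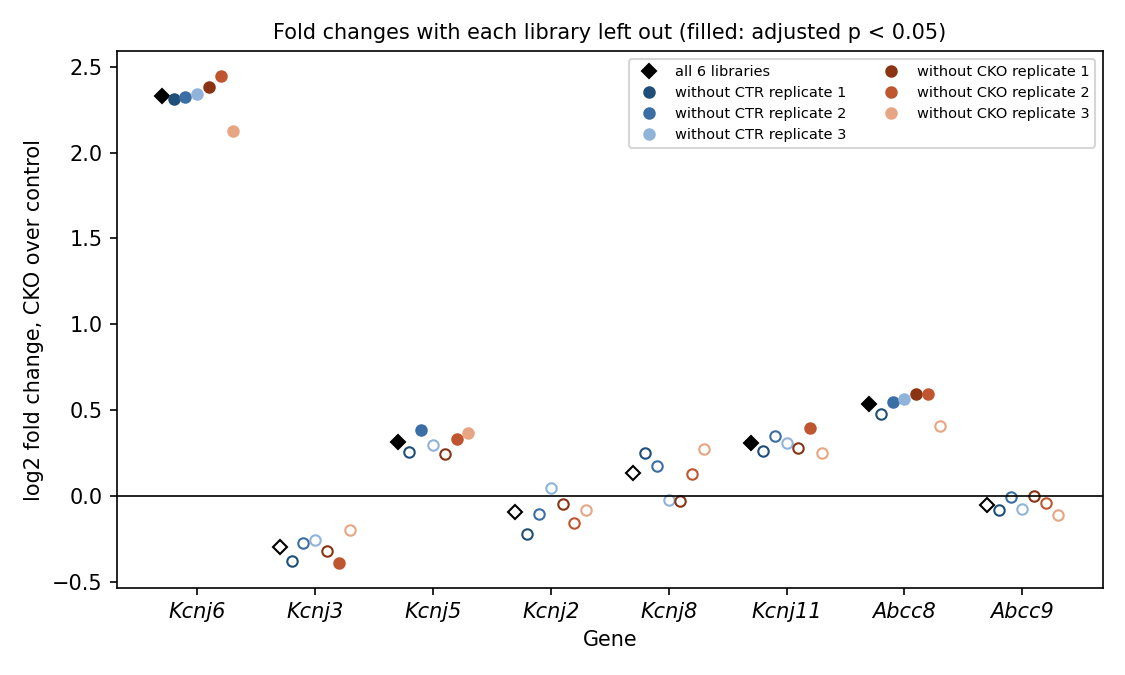
Log2 fold change of CKO over control for each gene with all 6 libraries (diamonds) and with each library left out in turn (circles), filled where the adjusted p was under 0.05. Kcnj6 lies between 2.13 and 2.45 throughout, Kcnj5, Kcnj11 and Abcc8 stay above 0 with open symbols in 3, 5 and 2 of the 6 fits, and Kcnj2, Kcnj8 and Abcc9 lie near 0.

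Of 9 other inward rectifier genes, 8 were in the table and 4 had enough reads to be tested. Kcnj4, which encodes the strong rectifier Kir2.3, was higher in CKO. It measured 5.92, 3.81 and 3.15 CPM in controls and 10.2, 6.71 and 11.7 CPM in CKO, without overlap (log2 fold change 1.15, SE 0.25, edgeR adjusted p = 0.0218), and the log2 fold change was 1.35 without the library labelled CKO 2. The call held in 2 of the 6 fits with a library left out (adjusted p up to 0.119; those without control replicate 1 or the library labelled CKO 2 kept it), and it was lost with either covariate, with a log2 fold change of 0.66 and adjusted p = 0.596 for the ribosomal RNA share. Kcnj12, which encodes Kir2.2, had a log2 fold change of -0.37 (SE 0.18), Kcnj15 one of -0.36 (SE 0.20) and Kcnj14 one of -0.83 (SE 0.51), none of them called. Kcnj9, the remaining GIRK gene, had at most 7 counts in a library, Kcnj10 at most 9, Kcnj13 at most 5 and Kcnj16 at most 2. The median log2 fold change of the 4 tested genes was -0.36.

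**Figure D5:**
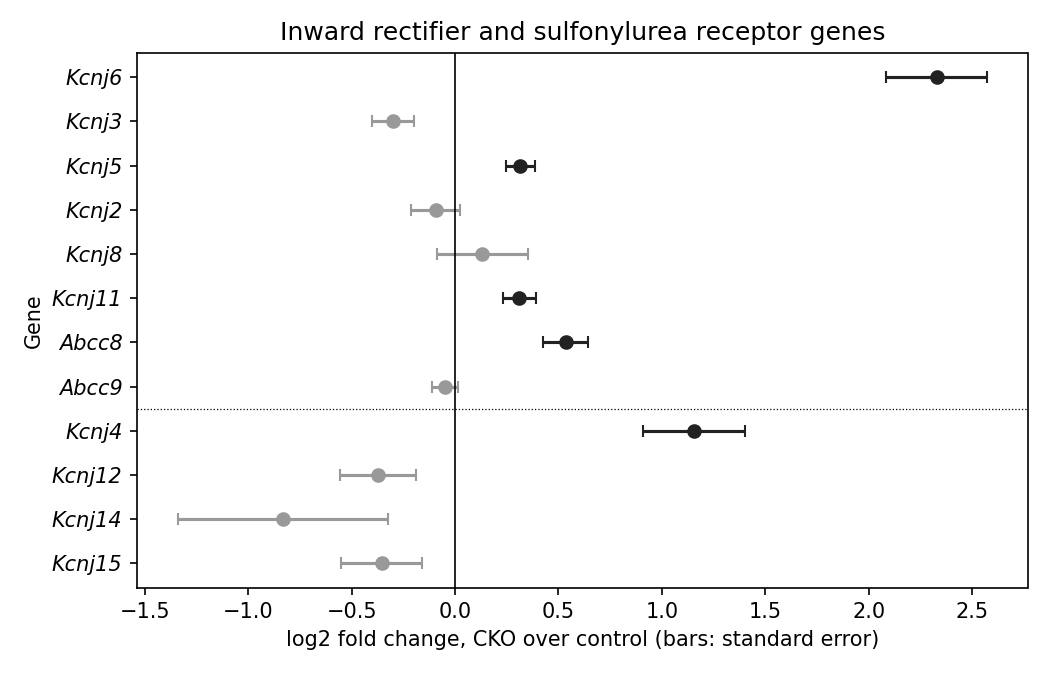
Log2 fold change of CKO over control with its standard error for the 8 genes of the set (above the dotted line) and the 4 other inward rectifier genes with enough reads (below), black where edgeR called the gene and grey where it did not. Kcnj6 at 2.33 and Kcnj4 at 1.15 have the largest rises, and Kcnj14 at -0.83 has the widest error.

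Of 20 receptor, G protein and RGS genes that act on the G protein-gated channels 19 were tested and 2 were called, both higher. Of all tested genes 3.03% were called higher. At an unadjusted edgeR p under 0.05 there were 3 higher and 1 lower, Gnb4, a G protein beta subunit gene. Its level was 56.1, 60.7 and 56.6 CPM in controls against 50.6, 51.0 and 49.8 CPM in CKO, below all controls (log2 fold change -0.20, SE 0.06, edgeR adjusted p = 0.0976). Adora1, the adenosine A1 receptor, which opens these channels in the atria and nodes, was at 15.97, 20.6 and 17.7 CPM in controls and 29.3, 24.7 and 31.6 CPM in CKO (log2 fold change 0.66, SE 0.11, edgeR adjusted p = 0.00125). Every CKO library was above every control. Gnao1, the G protein alpha-o subunit, was at 73.3, 73.7 and 77.0 CPM in controls and 102, 98.3 and 110 CPM in CKO (log2 fold change 0.47, SE 0.06, edgeR adjusted p = 0.00015). Both kept their call with each library left out (adjusted p up to 0.0166 and 0.00281), and with the ribosomal RNA covariate Gnao1 kept it and Adora1 did not (0.81, SE 0.18, adjusted p = 0.0608). Without the library labelled CKO 2 they were at 0.75 (Adora1) and 0.50 (Gnao1). Chrm2, the muscarinic receptor of the vagal response, had a log2 fold change of 0.08 (SE 0.09), and Rgs6, which ends that response, one of 0.28 (SE 0.09, adjusted p = 0.0866). The median of the list was 0.03. Of 8 genes for anchoring, sorting and phosphoinositide supply of inward rectifiers, none was called by edgeR, DESeq2 or limma-voom, and 1 had an unadjusted p under 0.05 in edgeR. Those with the smallest adjusted p were Cav3, a muscle caveolin (0.22, SE 0.08, adjusted p = 0.13), and the lipid kinase gene Pip5k1b (0.14, SE 0.08, adjusted p = 0.426).

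Several of the 8 genes are used in atrial, nodal, vascular or nerve cells, and markers of these cells moved in part. Beside the counts that follow, edgeR called 3.03% of all tested genes higher and 1.07% lower. Of 8 atrial markers 5 were called higher, among them Kcna5 (log2 fold change 0.84), Sln (0.95), Myl7 (0.53) and Myl4 (0.23). The summed level of the 8 was 3161 to 3403 CPM in controls and 3910 to 4407 CPM in CKO. Not called were Tbx5 (0.23), Nr2f1 (-0.09) and Nr2f2 (-0.07). Of 7 sinus node markers Vsnl1 (0.56) and Hcn4 (0.37) were called, with sums of 260 to 292 CPM and 299 to 389 CPM. DESeq2 called 3 of them higher and limma-voom 4. Shox2 (0.73), Smoc2 (0.60) and Tbx3 (0.23) were not called by edgeR, nor were Isl1 (-0.07) and Tbx18 (-0.11). Of 7 smooth muscle markers Acta2 (0.65), Myh11 (1.61) and Cnn1 (0.47) were called, with sums of 1725 to 1760 CPM and 2335 to 2816 CPM. Acta2 supplied most of these sums, with a mean of 1207 CPM in controls and 1889.5 CPM in CKO. Tagln (0.60), Mylk (0.23) and Smtn (0.05) were not called, nor was Myocd, which was lower in CKO (-0.20, SE 0.08). Of 6 tested pericyte markers Cspg4 (0.32) was called, with sums of 338 to 361 CPM and 344 to 392 CPM, and Higd1b was at 0 counts in every control and in CKO 2. Rgs5 (-0.25, SE 0.21) and Pdgfrb (-0.07, SE 0.06) were lower in CKO but not called. Ndufa4l2 (0.00), Notch3 (0.09) and Colec11 (0.14) were not called either. Of 6 tested nerve and glia markers, a cell group in which Kcnj6 is known, none was called by edgeR, DESeq2 or limma-voom, and 1 had an unadjusted edgeR p under 0.05. Their sums overlapped at 23.8 to 30.7 CPM and 25.8 to 30.4 CPM, and those with the smallest adjusted p were Th (log2 fold change 1.19, SE 0.53, adjusted p = 0.237) and Elavl4 (-0.45, SE 0.22, adjusted p = 0.295). Chrna3, a nicotinic receptor gene of autonomic neurons, had too few reads to be tested, with 0, 0 and 5 counts in controls and 14, 2 and 10 in CKO. Of 6 endothelial markers Tek (-0.36), Cdh5 (-0.30) and Kdr (-0.26) were called lower, with sums of 1015 to 1054 CPM and 839 to 972 CPM. Nfatc1 (-0.18), Pecam1 (-0.09) and Emcn (0.06) were not called. Of 6 ventricular markers Mpped2 (-0.33) was called lower by edgeR (sums 8857 to 10655 CPM and 9015 to 9275 CPM). DESeq2 called 3 lower and limma-voom 1. An unadjusted edgeR p under 0.05 was found for 3, Hey2 (-0.27) and Myh7 (-0.23) among them. Irx4 was at 0.11, Myl3 at 0.01 and Myl2 at -0.05. Of 8 heart muscle markers Myh6 (0.33) was called higher by edgeR (22661 to 23293 CPM and 24366 to 25694 CPM). DESeq2 called 3 higher and limma-voom 1. Again 3 had an unadjusted edgeR p under 0.05, with Actn2 (0.19) and Tnni3 (0.17) among them. Tnnt2 was at -0.01 and Nkx2-5 at -0.07. Of 6 red cell markers none was called by any of the 3 tools or at an unadjusted edgeR p under 0.05, with Alas2 at -0.59 (SE 0.27) and Hbb-bt at -0.56 (SE 0.27) and sums of 431 to 715 CPM and 400 to 461 CPM. The part of these cell types in the differences of the 8 genes was not tested. The share of all tested genes with an unadjusted edgeR p under 0.05 is not given here. Nothing is therefore read from counts at that threshold, in these lists or those above.

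The genes whose profile over the 6 libraries lay nearest to that of Kcnj6, by Euclidean distance between centred log2 CPM values among 13046 genes, were the fast troponin gene Tnnt3 (distance 0.75, log2 fold change 1.89), Tmem215 (0.891 and 1.84), Trim72, a muscle membrane repair gene (0.916 and 1.61), Lims2 (0.928 and 1.71) and Xirp2, an actin-binding protein gene of striated muscle (0.988 and 1.98). These 5 were picked by that likeness, so their rise in CKO follows from the choice. In the same measure for Kcnj8, Abcc9, its gene neighbour and the receptor its product assembles with, ranked 8962 of 13047 genes at a distance of 0.742. The ratio of Abcc9 to Kcnj8 per length ran from 11.1 to 17.0 in controls and from 9.13 to 15.9 in CKO.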

How the data were processed

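Poly(A) RNA of 6 E12.5 heart libraries (3 control, 3 CKO, grouped by title) was measured. The authors deposited raw read counts per gene symbol, named so per the labels. The genome build is listed as mm10 per the submitters' processing notes. Aligner, counting program, annotation and strand setting were not stated in the labels or the file header. The table had 30619 rows, 30152 of which matched 1 GENCODE M21 gene after 2017 altered symbols were restored. Gene positions and lengths are from GENCODE M21.

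Genes were filtered with filterByExpr (minimum count 10, total 15), which left 17557, scaled with TMM factors and tested with edgeR 4.0.16 (R 4.3.3, robust quasi-likelihood fit with group as its only term, two-sided). Benjamini-Hochberg adjustment ran over all tested genes, and calls were made at an adjusted p under 0.05. All adjusted p-values are from this test unless another tool is named. CPM use TMM-scaled library sizes, and levels between genes were compared per kilobase of merged exons. The pipeline was tested on simulated data. Alternatives were RLE or no scaling, DESeq2 1.42.0, limma-voom 3.58.1, other filters, a replicate block, 2 covariates and leaving out each library. Those chosen after seeing the data were edgeR's legacy fit, the summed Kcnj6 and Gm41505 counts and all alternatives for Kcnj4, Adora1, Gnao1 and Gm41505. Replicates differed beyond sampling noise (chi-square per gene 9.95 to 18.9). That spread does not show that they are separate embryos, and each was treated as 1 sample.

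The 8 genes and all gene lists were chosen with earlier results of these data known. Genes were named by rule: the 8 genes, other inward rectifier genes, up to 4 called genes of each list (the 2 with the smallest adjusted p where none was called), overlapping and nearest coding genes, the nearest profiles of Kcnj6 and Kcnj8, and Trim28. Chrm2, Rgs6, Tnnt2, Higd1b, Gnb4, Chrna3 and Xist were named after their values were seen. So were the named markers that were not called in the atrial, sinus node, smooth muscle, pericyte, endothelial, ventricular and heart muscle lists. One nerve marker of the lists is not reported here.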

Additional observations from a re-analysis of the deposited data

How the results depend on the processing

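Counts over all genes moved most. DESeq2 called 304 genes lower, the fit without a filter 863 higher and 388 lower, the ribosomal RNA covariate 53 and 3, and the Y-linked covariate 274 and 37, against 532 and 188. With 1 library left out, 255 to 1012 genes were called higher and 39 to 540 lower. Of the 8 genes, 4 were called higher, 1 with the ribosomal RNA covariate, 2 with the Y-linked covariate and 1 to 4 with a library left out. None was called lower, except Kcnj3 without a filter (1 gene) and without CKO replicate 2 (0 to 1 over the fits with a library left out). Directions turned for Kcnj2 (0.29 with the ribosomal RNA covariate), Kcnj8 (-0.30 with it) and Abcc9 (0.013 with it and 0.00026 with the Y-linked covariate). With a library left out the log2 fold change of Kcnj2 ran from -0.22 to 0.044, above 0 without control replicate 3, and that of Kcnj8 from -0.027 to 0.28, below 0 without control replicate 3 or CKO replicate 1. None of these 3 genes was called in any fit, and the cause was not tested. Kcnj6, Kcnj5, Kcnj11, Abcc8 and Kcnj3 kept their direction in all 15 of the alternatives run on the whole table, 6 of which left out a library. Same-numbered libraries did not deviate together (correlations -0.00 to 0.02), so the numbers pair nothing. With the replicate block 518 genes were called higher and 158 lower, and 3 of the 8 genes were called, without Kcnj11 (0.31), as in limma-voom. The rank of the 8 control levels changed under no length or left-out control. Low counts limit Kcnj6 and Kcnj8, and counting error covers only part of the spread.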
